A study of Homo sapiens with 48 samples.

Results

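The response to 8 h of CNOT4 depletion was read in 4 of the 48 libraries of the series: 2 of untreated CNOT4-AID cells and 2 of CNOT4-AID cells kept for 8 h in 1 mM auxin. They were taken by cell line, treatment and time as the labels give them. All cells were DLD-1, a human colorectal cancer line, and all of them, the parental line included, carried TIR1, a plant receptor that hands proteins bearing an auxin-inducible degron (AID) to the cell's ubiquitin ligases when auxin is present. In CNOT4-AID cells the degron was placed at the genomic CNOT4 locus, so the untreated cells of the line carry the tag as well, and parental cells carry TIR1 without a tag. The background was the response to the same auxin dose and time in parental cells (4 libraries). The response of CNOT4-AID cells to 24 h of auxin (4 libraries), the response of CNOT1-AID cells to 8 h of auxin (4 libraries), and the decay of RNA under 1 µM triptolide, an inhibitor of transcription, after 2 h of auxin were used for comparison. Whether the tagged line is a single clone, and whether the replicates came from separate cultures, is not given in the sources used here. The p-values thus rest on how far replicate libraries differ from each other, pooled over all groups of a fit, and that spread may be only technical.

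CCR4-NOT is the main cytoplasmic complex that shortens the poly(A) tails of mRNAs, the step that precedes decapping and decay. CNOT1 is its scaffold, the CNOT6, CNOT6L, CNOT7 and CNOT8 subunits are the deadenylases, and CNOT10 and CNOT11 form a module at one end of the scaffold. CNOT4 is a RING-type ubiquitin ligase that works with ubiquitin-conjugating enzymes of the UBE2D family and is linked to the surveillance of ribosomes that stall on an mRNA. In human cells CNOT4 is not a stable member of the complex.

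Levels were deposited as TPM, a length-adjusted share of the library. Averaged over the 4 libraries, 10 of 15 colon epithelial markers reached 1 TPM, and the 15 summed to 3590 to 3630 TPM in untreated and 3170 to 4120 TPM in auxin-treated CNOT4-AID cells before any scaling. The colon markers CDX1 and MUC2 were listed at 0 in all 4 libraries. None of the 7 blood, 4 endothelial and 8 fibroblast markers reached a mean of 1 TPM, and 2 of 4 neural markers did (TUBB3 and MAP2). The depth behind the TPM values is unknown. Auxin-treated CNOT4-AID replicate 1 stood apart in composition: protein-coding genes took 30.6% of its TPM and small nuclear RNAs 34.1%, against 39.47% and 26.25% in auxin-treated replicate 2. The untreated replicates held 38.05% and 37.82% protein-coding and 27.53% and 27.32% small nuclear RNA, and the 4 parental libraries of 8 h held 44.23% to 47.23% and 16.83% to 19.31%. Levels below were therefore scaled between libraries by the trimmed mean of M values (TMM) and are called scaled TPM, and calls are also given without single libraries.

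**Figure D1:**
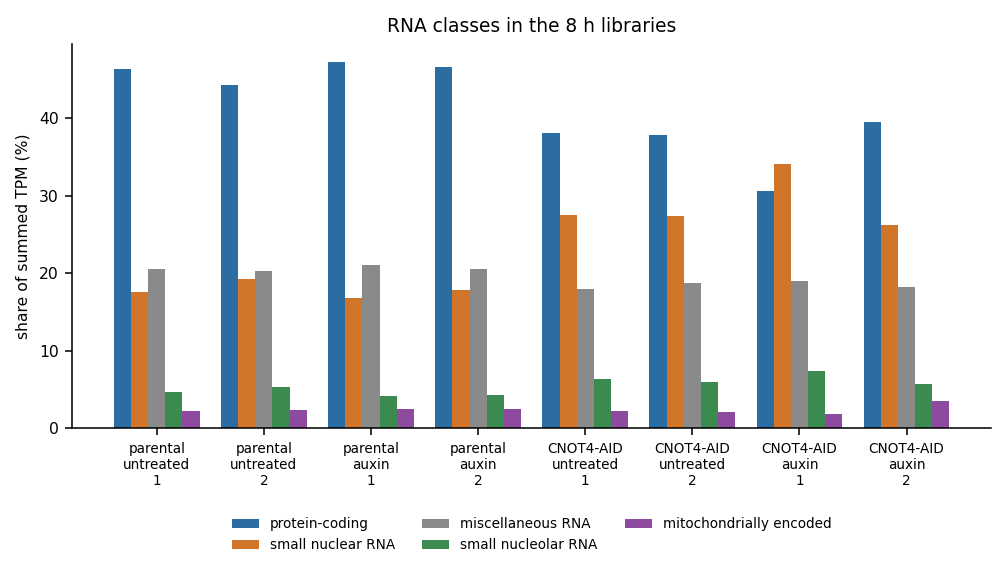
Share of the summed TPM (y axis, percent) taken by 5 RNA classes in each of the 8 libraries of 8 h (x axis: line, treatment and replicate), 1 bar per class and library. Auxin-treated CNOT4-AID replicate 1 is the library in which small nuclear RNAs (34.1%) exceed protein-coding genes (30.6%).

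The degron acts on the CNOT4 protein, which was not measured. CNOT4 mRNA (chromosome 7, 135361795 to 135510127, hg38) stood at 12.0 and 11.2 scaled TPM in untreated and at 13.2 and 13.3 in auxin-treated CNOT4-AID libraries, and at 8.61 and 8.25 untreated and 8.93 and 9.68 with auxin in parental libraries. The 2 auxin-treated libraries of each line were above its untreated ones, and neither difference passed the test (log2 0.19 ± 0.084 SE in CNOT4-AID cells, limma, adjusted p = 0.445, and 0.13 in parental cells). The mRNA of the tagged gene thus gives no check of the depletion.

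At 8 h few RNAs differed between auxin-treated and untreated CNOT4-AID cells, and most of these by a small amount. Of 14921 genes with at least 1 TPM in at least 2 libraries, 43 passed an adjusted p of 0.05 (0.288%), of which 36 were higher (0.241%) and 7 lower (0.0469%) with auxin. Leaving out 1 locus listed at 0 in both untreated libraries, the other 35 rises were 1.16-fold to 2.61-fold with a median of 1.28-fold, and 3 of the called genes (ANGPTL4, CYP1A1 and HSPA6) changed by more than 1.5-fold. Folds are on the scale log2(scaled TPM + 0.5), which understates the change of low genes. In parental cells 3 genes passed (0.0201%), of which 2 were higher (0.0134%) and 1 lower (0.0067%), and in CNOT4-AID cells at 24 h 673 passed (4.51%). With an unadjusted p of 0.05 the counts were 1596 in CNOT4-AID and 835 in parental cells at 8 h. The order of the lines turned round when only the groups compared were fitted, where 4 genes passed in CNOT4-AID and 13 in parental cells. Without the filter the order held and the gap narrowed, to 29 and 18. All 43 genes had the 2 auxin-treated libraries beyond both untreated ones in scaled TPM, as the call nearly requires; of all genes tested 19.8% had both above and 19% both below. In the deposited TPM, before scaling, 20 of the 36 risers and 7 of the 7 fallers had groups that did not overlap, where 3.31% of all genes had both auxin libraries above and 32.5% both below.

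**Figure D2:**
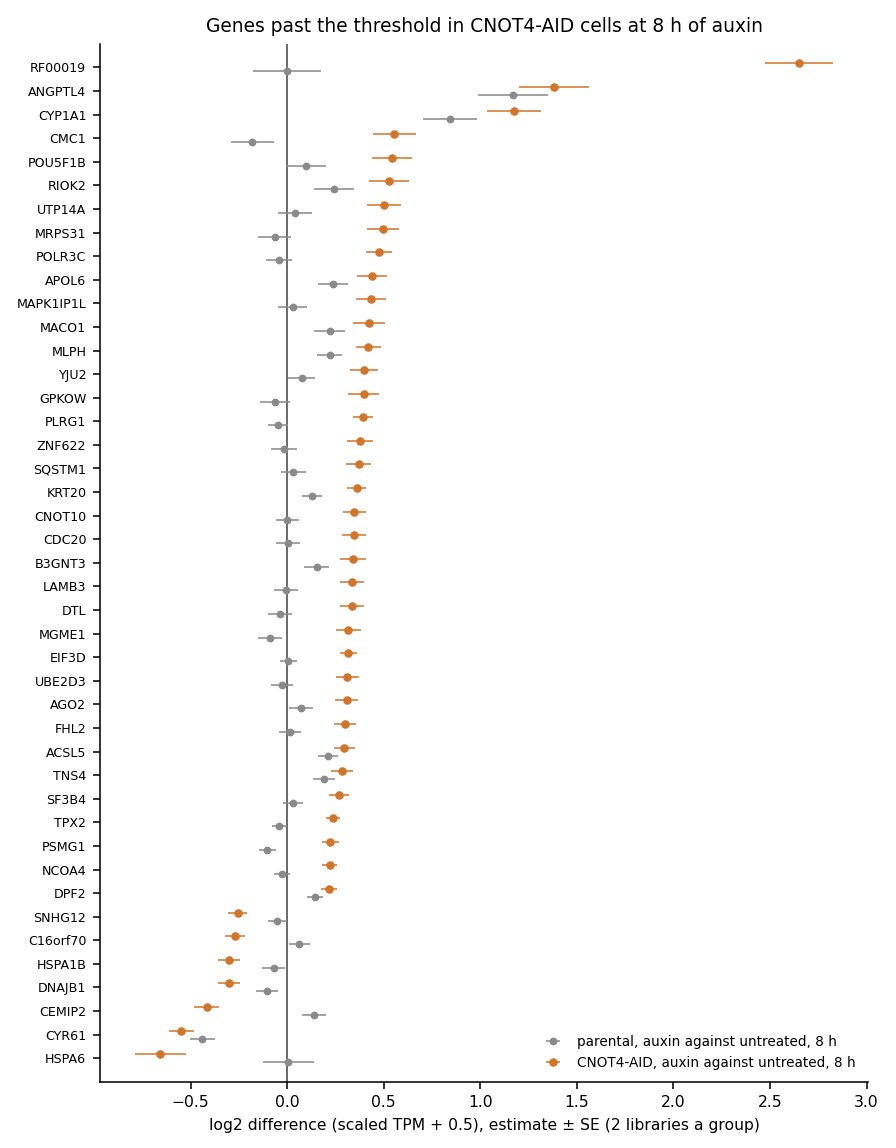
Log2 difference between auxin-treated and untreated cells at 8 h (x axis, estimate ± SE from limma, 2 libraries a group) for the 43 genes past the threshold in CNOT4-AID cells (y axis), in CNOT4-AID (orange) and parental cells (grey). ANGPTL4, CYP1A1 and CYR61 lie far from 0 on the same side in both lines, and no other parental point lies farther than 0.244 from 0. Of the 33 small risers 20 are also above 0 in parental cells and 13 are below.

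The calls were sensitive to single libraries. The 2 auxin-treated CNOT4-AID libraries of 8 h differed most among the 12 steady-state pairs (SD of the log2 difference 0.467, against 0.385 in the untreated pair). The test pools the spread of all these pairs. Without untreated replicate 1, untreated replicate 2 or auxin-treated replicate 2, 5, 7 and 5 of the 43 genes passed again, and 28 passed again without auxin-treated replicate 1, where 106 genes passed in all. All of the called genes that could be tested kept their direction in each of these 4 fits. Scaling by spiked ERCC RNA moved the median difference of all genes to -0.11 on the log2 scale and no scaling moved it to -0.13. The split of calls was then 3 higher and 3 lower, and 3 higher and 8 lower, so rises and falls here are relative to the typical gene. CYP1A1, ANGPTL4, CYR61, HSPA6 and 1 RNA of family RF00019 passed under each scaling, and CYP1A1 and CYR61 also passed without each of the 4 libraries. Both lost the call when only the groups compared were fitted (adjusted p = 0.276 and 0.313).

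CYP1A1, ANGPTL4 and CYR61 differed in the same direction in parental cells. CYP1A1 and ANGPTL4 lie below the level the naming rule asks for and were named after their values were seen. CYP1A1 (chromosome 15, 74719542 to 74725610), a cytochrome P450 and the classic target of the aryl hydrocarbon receptor, which binds planar aromatic ligands, stood at 3.05 and 3.00 scaled TPM in untreated and at 8.55 and 6.47 in auxin-treated CNOT4-AID libraries. In parental libraries it stood at 2.5 and 2.33 untreated and at 4.83 and 4.61 with auxin. The groups did not overlap in either line, and the highest level was that of auxin-treated CNOT4-AID replicate 1. CYP1A1 rose 2.25-fold in CNOT4-AID cells (log2 1.17 ± 0.140 SE, limma, adjusted p = 0.00161) and stood 1.79-fold higher in parental cells, which did not pass (0.84 ± 0.140, adjusted p = 0.0707). The difference between the responses of the lines was 0.33 ± 0.199 (adjusted p = 0.795), so a stronger response in CNOT4-AID cells was not shown.

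The promoter of CYP1A1, from 250 bases before to 50 after its start, is shown because its activity is tied to that receptor (RefSeq, GRCh38.p14, chr15:74725479-74725778, minus strand, 5′ to 3′). Capitals mark the core letters GCGTG of the receptor's binding motif, searched on both strands. The window held 1 match, which begins 57 bases before the start, and 36.5% of 35116 promoter windows of this length held at least 1, so a match is common. A match to the core letters alone does not show a site that the receptor binds. Bases more than 250 before the start, where other sites may lie, were not searched.
CYP1A1: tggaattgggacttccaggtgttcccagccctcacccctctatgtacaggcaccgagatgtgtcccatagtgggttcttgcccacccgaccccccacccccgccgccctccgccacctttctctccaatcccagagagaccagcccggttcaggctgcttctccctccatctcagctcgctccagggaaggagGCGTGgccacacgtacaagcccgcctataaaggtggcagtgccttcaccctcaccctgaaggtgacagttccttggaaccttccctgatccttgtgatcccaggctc

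Other genes of the receptor's programme gave no such rise. Of 12 measured aryl hydrocarbon receptor targets CYP1A1 was the 1 that passed, and the list's median was 0.08 in CNOT4-AID and 0.03 in parental cells, against 0.00 for all genes tested. CYP1B1, a related P450, stood at 7.07 and 6.35 scaled TPM untreated and 8.86 and 7.66 with auxin (log2 0.28 ± 0.113, adjusted p = 0.388), and AHRR, the receptor's repressor, at 3.25 and 3.91 against 4.08 and 3.74 (0.12, adjusted p = 0.88). TIPARP, another target, stood lower with auxin, at 12.9 and 12.5 against 10.9 and 10.5 (-0.24, adjusted p = 0.321). At 24 h CYP1A1 (log2 0.76 ± 0.140, adjusted p = 0.0104) and CYP1B1 (0.59, adjusted p = 0.0131) both rose. Levels of CYP1A1 were lower at that time, at 0.420 and 0.286 scaled TPM untreated and 0.994 and 0.884 with auxin.

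ANGPTL4 (chromosome 19, 8363289 to 8374373), a secreted inhibitor of lipoprotein lipase, stood at 1.25 and 1.51 scaled TPM in untreated and 4.69 and 4.11 in auxin-treated CNOT4-AID libraries, and at 1.25 and 1.44 untreated and 3.28 and 4.02 with auxin in parental libraries. It rose in both lines, 2.61-fold in CNOT4-AID cells (log2 1.38 ± 0.181, limma, adjusted p = 0.00341) and 2.25-fold in parental cells (1.17 ± 0.181, adjusted p = 0.0408), and the responses differed by 0.21 ± 0.256 (adjusted p = 0.952). Its call in CNOT4-AID cells was lost without untreated replicate 1 (adjusted p = 0.0788) and with only the groups compared (0.143). Its parental call was lost without any 1 of the 4 parental libraries (adjusted p = 0.236 to 0.458), with ERCC scaling (0.109), a pseudocount of 0.1 (0.0737) and only the groups compared (0.0842). The RefSeq promoter of ANGPTL4 held no match to GCGTG.

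CYR61 (chromosome 1, 85580761 to 85583962), which encodes a secreted matrix protein switched on by the YAP and serum response pathways and is now named CCN1, went down in both lines. Its levels were 107 and 101 scaled TPM in untreated and 75.9 and 66.2 in auxin-treated CNOT4-AID libraries, and 78.4 and 73.2 untreated and 54.8 and 56.7 with auxin in parental libraries. The auxin-treated CNOT4-AID libraries thus lay near the level of untreated parental cells, since the tagged line started higher. The log2 difference of CYR61 was -0.55 ± 0.064 in CNOT4-AID cells (limma, adjusted p = 0.00161) and -0.44 ± 0.064 in parental cells (adjusted p = 0.0275), with a difference of -0.11 ± 0.090 between the responses (adjusted p = 0.888). The parental call was lost without any 1 of the 4 parental libraries (adjusted p = 0.118 to 0.375), with ERCC scaling (0.657), without scaling (0.344) and with only the groups compared (0.0679). In CNOT4-AID cells CYR61 also fell at 24 h (-0.28, adjusted p = 0.0248). Of 53 measured immediate early genes, the fast transcriptional targets of growth factor signalling, CYR61 was the 1 that passed at 8 h, and the list's median was -0.03, against 0.00 for all genes.

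**Figure D3:**
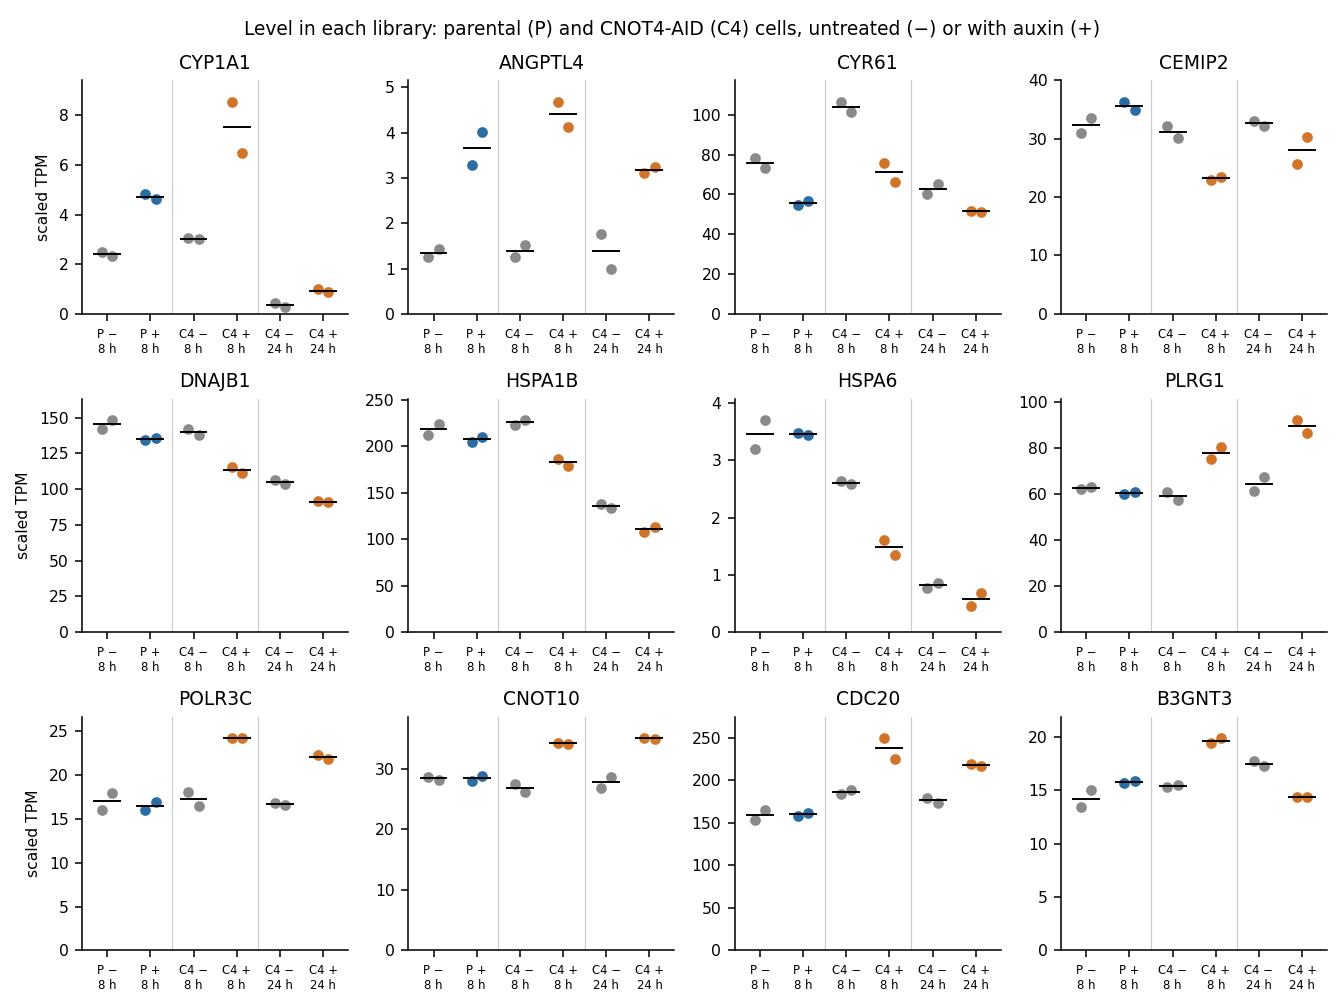
Scaled TPM (y axes, from 0) of 12 genes in each library of parental (P) and CNOT4-AID (C4) cells, untreated (−, grey) or with auxin (+, blue or orange), at 8 h and, for CNOT4-AID cells, at 24 h. Points are libraries and lines their means; the groups of CYP1A1, ANGPTL4 and CYR61 are apart in both lines, while PLRG1, POLR3C and CNOT10 are higher with auxin in CNOT4-AID cells and level in parental cells.

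The other falls included inducible heat shock genes. The 3 chaperone genes among them are switched on by heat shock factor 1 when proteins misfold: HSPA1B and HSPA6 encode HSP70 proteins and DNAJB1 an HSP40 that hands them substrates. DNAJB1 stood at 142 and 138 scaled TPM in untreated and 115 and 111 in auxin-treated CNOT4-AID libraries, and at 142 and 149 against 134 and 136 in parental libraries. It fell by 0.30 ± 0.056 on the log2 scale in CNOT4-AID cells (limma, adjusted p = 0.0368), and the parental difference was -0.10 (adjusted p = 0.875). HSPA1B stood at 223 and 228 against 186 and 179 in CNOT4-AID libraries and at 212 and 224 against 205 and 210.0 in parental libraries. Its fall was 0.30 ± 0.058 (adjusted p = 0.0393), with -0.07 in parental cells.

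HSPA6, a low gene that was chosen after its values were seen, stood at 2.63 and 2.59 scaled TPM against 1.61 and 1.34 in CNOT4-AID libraries (log2 -0.66 ± 0.132, adjusted p = 0.0496) and at 3.20 and 3.71 against 3.48 and 3.44 in parental libraries (0.00). In each of these genes the auxin-treated CNOT4-AID libraries were the lowest of the 8. The difference between the lines' responses did not pass for any of them (HSPA6 -0.66 ± 0.187, adjusted p = 0.48; HSPA1B -0.23, adjusted p = 0.574; DNAJB1 -0.20, adjusted p = 0.63). All 3 calls were lost when an untreated replicate or auxin-treated replicate 2 was left out, with adjusted p between 0.167 and 0.328, and those of DNAJB1 and HSPA1B were lost with ERCC scaling (-0.42 each, adjusted p = 0.06 and 0.174). Without the filter all 3 missed the threshold (0.0622 to 0.0683), as they did with only the groups compared (0.432 to 0.524), and HSPA6 also did with a pseudocount of 0.1 (0.0746) and with library weights (0.0578).

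The promoters of these 3 genes are shown because they carry the best known binding sites of heat shock factor 1 (RefSeq, GRCh38.p14, 250 bases before to 50 after the start, 5′ to 3′). Capitals mark inverted pairs of the factor's half-site, GAANNTTC or TTCNNGAA, which read the same on both strands. HSPA6 (chr1:161524290-161524589, plus strand) held 3 matches in 2 stretches that begin 180 and 74 bases before the start, the second a run of overlapping pairs, HSPA1B (chr6:31827488-31827787, plus strand) held 1 that begins 105 bases before, and DNAJB1 (chr19:14518348-14518647, minus strand, 1 of 3 listed starts, taken as nearest to the GENCODE start) held 2, at 77 and 47 bases before. Of all 35116 windows 13.5% held at least 1.
HSPA6: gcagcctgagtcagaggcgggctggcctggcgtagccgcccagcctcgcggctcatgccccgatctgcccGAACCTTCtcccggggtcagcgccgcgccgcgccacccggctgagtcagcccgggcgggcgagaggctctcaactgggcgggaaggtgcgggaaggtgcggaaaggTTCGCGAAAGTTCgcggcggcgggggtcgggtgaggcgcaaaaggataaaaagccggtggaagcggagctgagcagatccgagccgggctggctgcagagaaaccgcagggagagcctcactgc
HSPA1B: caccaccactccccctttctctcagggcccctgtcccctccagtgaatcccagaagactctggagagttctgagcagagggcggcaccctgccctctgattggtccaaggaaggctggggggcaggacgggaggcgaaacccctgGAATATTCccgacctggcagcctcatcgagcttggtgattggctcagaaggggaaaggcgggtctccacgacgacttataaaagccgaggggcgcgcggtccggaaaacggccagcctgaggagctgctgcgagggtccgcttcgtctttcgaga
DNAJB1: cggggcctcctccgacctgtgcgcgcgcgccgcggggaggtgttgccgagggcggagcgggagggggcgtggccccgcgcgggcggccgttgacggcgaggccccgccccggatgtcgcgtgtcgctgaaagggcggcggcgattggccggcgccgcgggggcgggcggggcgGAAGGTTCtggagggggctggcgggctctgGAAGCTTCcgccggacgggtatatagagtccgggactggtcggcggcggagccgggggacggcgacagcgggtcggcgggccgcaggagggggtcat

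Among 19 measured heat shock genes these 3 fell, where 0.0469% of all genes did, and none rose, while the list's median was -0.015, against 0.00 for all genes and -0.053 in parental cells. The rest of the chaperone system did not move as one. HSPA8, the constitutive HSP70, stood at 2713 and 2646 scaled TPM untreated and 2416 and 2473 with auxin (log2 -0.13 ± 0.042, adjusted p = 0.234), and HSP90AB1 at -0.15 (adjusted p = 0.154). BAG3, a co-chaperone and heat shock factor target, stood at 62.6 and 62.5 untreated and 69.5 and 74.8 with auxin (0.20, adjusted p = 0.234). HSPA1A is a near-identical copy of HSPA1B and was listed at 1.94 to 2.74 scaled TPM in the 4 libraries, so how reads were split between these copies is uncertain. At 24 h HSPA1B fell again (-0.30, adjusted p = 0.0132), DNAJB1 missed the threshold (-0.20, adjusted p = 0.0525) and HSPA6 was at -0.30 (adjusted p = 0.191). Untreated CNOT4-AID levels also differed between the times, with HSPA1B at 138 and 133 and HSPA6 at 0.773 and 0.859 scaled TPM at 24 h.

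CEMIP2 (chromosome 9, 71683366 to 71816690), which encodes a cell-surface hyaluronidase, stood at 32.1 and 30.2 scaled TPM in untreated and 22.9 and 23.5 in auxin-treated CNOT4-AID libraries, a fall of 0.42 ± 0.064 on the log2 scale (limma, adjusted p = 0.0111). Parental libraries went the other way, from 31.0 and 33.6 untreated to 36.4 and 34.9 with auxin (0.14, adjusted p = 0.867). The lines' responses differed by -0.56 ± 0.090, which missed the threshold (adjusted p = 0.0659), as did the fall at 24 h (-0.22, adjusted p = 0.0557). SNHG12, a host gene of small nucleolar RNAs, stood at 71.8 and 71.5 against 62.2 and 57.7 and fell by 0.26 ± 0.048 (adjusted p = 0.0368). C16orf70 stood at 18.7 and 18.1 against 15.3 and 15.0 (-0.27 ± 0.053, adjusted p = 0.043). Both groups of each of these genes were separate in CNOT4-AID cells.

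The rises were led, after the genes above, by small changes in mRNAs of many kinds. Without CYP1A1, ANGPTL4 and the RF00019 locus, 33 genes rose, each under 1.5-fold (1.16-fold to 1.47-fold). In parental cells the same 33 ranged from -0.18 to 0.24 on the log2 scale with a median of 0.02, and 20 were positive, 13 negative and 0 past the threshold. Among the positive ones were RIOK2 (0.24, against 0.53 in CNOT4-AID cells), APOL6 (0.24 against 0.44), and MACO1 and MLPH (0.22 against 0.42 each). Their response in CNOT4-AID minus parental cells ranged from 0.07 to 0.74, and none passed as a difference (limma, lowest adjusted p = 0.068), although 1061 of all genes had an unadjusted p under 0.05 for it.

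In the deposited TPM 16 of the 36 risers had groups that overlapped, because auxin-treated replicate 1 was not above both untreated libraries, and their separation came with the scaling. Genes of ribosome and RNA machinery included PLRG1, POLR3C and UTP14A. PLRG1, a core protein of the PRP19 complex of the spliceosome, stood at 61.0 and 57.4 scaled TPM untreated and 75.2 and 80.5 with auxin in CNOT4-AID libraries, and at 62.1 and 63.1 against 60.0 and 61.1 in parental ones. It rose by 0.39 ± 0.052 on the log2 scale (limma, adjusted p = 0.00341), and its difference from the parental response (0.44 ± 0.073) was the one nearest to the threshold among the risers (adjusted p = 0.068). POLR3C, a subunit of RNA polymerase III, stood at 18.1 and 16.4 against 24.1 and 24.2, with 16.0 and 17.9 against 15.9 and 16.9 in parental libraries (0.48 ± 0.068, adjusted p = 0.00624). The auxin-treated CNOT4-AID libraries of both genes were the highest of the 8 in scaled TPM, but the deposited TPM of PLRG1 in auxin-treated replicate 1 (49.4) lay between the untreated 49.8 and 46.3.

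UTP14A, of the complex that processes the small ribosomal subunit, stood at 13.9 in both untreated CNOT4-AID libraries and at 17.4 and 22.7 with auxin (0.50 ± 0.088, adjusted p = 0.0301). RIOK2, a kinase that matures the same subunit, stood at 11.1 and 12.5 against 15.6 and 18.9 (0.53 ± 0.103, adjusted p = 0.0426), and ZNF622, a factor of large subunit maturation, at 13.2 and 14.7 against 17.4 and 19.1 (0.38 ± 0.066, adjusted p = 0.0301). In UTP14A and RIOK2 auxin-treated replicate 2 was well above replicate 1. The deposited TPM of UTP14A in auxin-treated replicate 1 (11.4) was close to the untreated 11.3 and 11.2. MRPS31 of the mitochondrial ribosome (8.93 and 10.1 against 12.2 and 15.1) and CMC1, an assembly factor of cytochrome c oxidase (8.02 and 8.06 against 11.7 and 12.4), rose by 0.50 and 0.55.

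The remaining largest rises by the naming rule were MAPK1IP1L (0.43), MACO1 (0.42), MLPH (0.42), an effector of vesicle transport, YJU2 (0.40) and GPKOW (0.395), both spliceosome proteins. The roles of these genes were read after they were called, and no theme was tested. Outside the rule, SQSTM1, the p62 receptor of selective autophagy, was at 89.3 and 91.9 scaled TPM against 123 and 112 (0.37 ± 0.065, limma, adjusted p = 0.0301), and the intestinal keratin KRT20 at 35.7 and 35.4 against 44.7 and 46.8 (0.36 ± 0.051, adjusted p = 0.00624). KRT20 was the 1 colon marker of 15 that passed, and CDX1, MUC2 and CEACAM5 were too low to be tested. EIF3D, a subunit of translation initiation factor 3, was at 93.1 and 91.8 against 114 and 117 (0.32 ± 0.046, adjusted p = 0.00693). These genes were named after their values were seen, as were the low genes POU5F1B (0.54) and APOL6 (0.44).

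The partners of CNOT4 moved little. Of 12 measured genes of the CCR4-NOT list, which holds CNOT4 itself and TNKS1BP1, CNOT10 rose and none fell. The list's median was 0.02 in CNOT4-AID and 0.03 in parental cells. CNOT10 (chromosome 3, 32685145 to 32773875) stood at 27.4 and 26.1 scaled TPM untreated and 34.3 and 34.1 with auxin in CNOT4-AID libraries, and at 28.6 and 28.2 against 28.0 and 28.8 in parental ones. Its groups were separate in the tagged line and mixed in the parental line. It rose by 0.35 ± 0.059 on the log2 scale at 8 h (limma, adjusted p = 0.0282) and by 0.33 at 24 h (adjusted p = 0.00854), and the difference from the parental response at 8 h was 0.35 ± 0.084 (adjusted p = 0.338). The 8 h call of CNOT10 was lost with ERCC scaling, without scaling and with only the groups compared. CNOT11, its module partner, was at 0.13 ± 0.067 (adjusted p = 0.503), the scaffold CNOT1 at -0.0024 ± 0.068, and the deadenylases CNOT6L, CNOT8, CNOT7 and CNOT6 at -0.14, -0.09, -0.01 and 0.02.

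Of 34 ubiquitin-conjugating enzymes UBE2D3, of the family that serves CNOT4, was the 1 that passed. It stood at 153 and 158 scaled TPM untreated and 178 and 209 with auxin, and at 159 in both untreated and at 154 and 159 in the auxin-treated parental libraries (0.31 ± 0.059, limma, adjusted p = 0.0393; difference from parental 0.34 ± 0.083, adjusted p = 0.35). Its deposited TPM in auxin-treated replicate 1 (117) was below the untreated 125 and 127. Of 44 deadenylation and decapping factors AGO2, the slicing Argonaute of microRNA silencing, rose (0.31 ± 0.060, adjusted p = 0.0426) and the median was -0.02. The calls of UBE2D3 and AGO2 were lost with ERCC scaling, without scaling, without the filter and with only the groups compared. None of 31 ribosome quality control genes passed (median -0.005), none of 30 genes of the integrated stress and unfolded protein responses (median 0.05) and none of 32 proteasome genes (median 0.03).

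Cell cycle genes gave 2 calls. Of 46 G2/M genes CDC20, which activates the anaphase-promoting complex, and TPX2, a spindle assembly factor, rose, where 0.241% of all genes did. CDC20 stood at 184 and 189 scaled TPM against 249.8 and 225 (0.35 ± 0.063, limma, adjusted p = 0.0338) and TPX2 at 51.2 and 49.8 against 58.7 and 60.6 (0.24 ± 0.037, adjusted p = 0.0126). Both calls were lost with ERCC scaling, without scaling and with only the groups compared. The list's median was 0.02 at 8 h, with 27 genes positive and 19 negative, and 0.21 at 24 h, where 11 rose and 2.09% of all genes did. DTL, the substrate receptor of a ubiquitin ligase that acts in S phase, rose by 0.34 as well, and none of 40 G1/S genes passed (median 0.03). In bulk RNA, a changed number of cells in a phase and a changed amount of RNA per cell cannot be told apart.

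Of the other lists, cholesterol synthesis genes leaned down without a call: 20 of 25 were negative, with a median of -0.101 at 8 h and -0.055 in parental cells, and at 24 h the median was -0.18 and 5 fell, where 2.42% of all genes did and 2 genes in all with ERCC scaling. Their summed level was 1068 scaled TPM in both untreated CNOT4-AID libraries and 1032 and 1019 with auxin. Of 61 histone genes 48 were negative and 0 passed (median -0.116, against -0.205 in parental cells). Mitochondrial ribosomal protein genes had a median of 0.07, with 58 of 78 positive and MRPS31 called. Across all genes 50% were positive with a median of 0.00. With ERCC scaling the medians shifted with that of all genes (-0.106), and those of CCR4-NOT subunits (-0.094), G2/M genes (-0.095), mitochondrial ribosomal protein genes (-0.048) and aryl hydrocarbon receptor targets (-0.034) turned negative. No gene passed among the targets of p53 (22 measured), NF-kB (16), NRF2 (18), interferon (25) and Wnt signalling (19).

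RNAs encoded by the mitochondrial genome showed how far single libraries carry a list. Of 15 such genes 14 were positive with a median of 0.47 and 0 passed. They summed to 26550 and 26460 scaled TPM untreated and to 28140 and 42610 with auxin, so auxin-treated replicate 2 was high. The median was 0.03 without that library and 0.85 without replicate 1. At 24 h the sums were 22830 and 27120 untreated and 30400 and 32860 with auxin (median 0.44, 1 gene higher), and in parental cells at 8 h they were 21920 and 23320 against 22830 and 22530. Small nuclear, small nucleolar and Cajal body RNAs were the reverse: their medians of 0.19, 0.17 and 0.30 became -0.003, -0.153 and 0 without auxin-treated replicate 1.

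**Figure D4:**
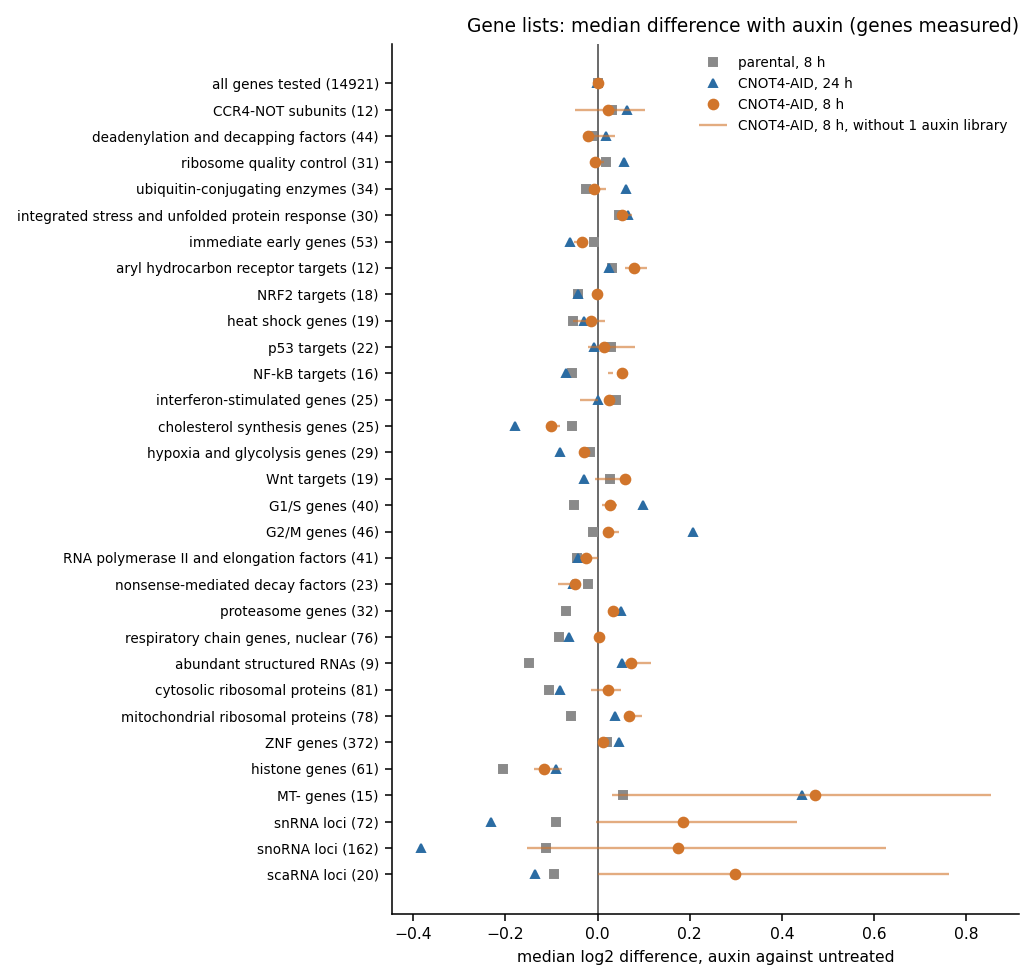
Median log2 difference between auxin-treated and untreated cells (x axis) of each gene list (y axis, genes measured in parentheses) in CNOT4-AID cells at 8 h (circles) and 24 h (triangles) and in parental cells at 8 h (squares). Orange lines span the 8 h medians without either auxin-treated CNOT4-AID library; they are widest for mitochondrially encoded genes (0.03 to 0.85) and for the small nuclear, nucleolar and Cajal body RNAs.

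The genes called at 8 h were read again in the 4 CNOT4-AID libraries of 24 h, which share no library with the 8 h comparison. Both comparisons come from the same fit, which gives a gene the same SE at both times. That SE had a median of 0.063 in the 33 small risers and 0.058 in the fallers, against 0.11 for all genes. The called genes thus pass more easily at 24 h than a typical gene, and the shares of all genes below are not a like baseline. Of the 33 small risers 31 were positive at 24 h, 23 passed as higher (2.09% of all genes did) and 1 as lower, with a median of 0.29. Of the 7 fallers 7 were negative and 3 passed as lower (2.42% of all genes did), with a median of -0.22. PLRG1 stood at 61.3 and 67.4 scaled TPM untreated and 92.4 and 86.7 with auxin at 24 h (0.47, limma, adjusted p = 0.000717), and MRPS31 at 9.67 and 10.4 against 14.7 and 13.8 (0.49, adjusted p = 0.00706). EIF3D (0.34), KRT20 (0.35), ZNF622 (0.37), SQSTM1 (0.29) and UBE2D3 (0.23) rose again, while AGO2 (-0.03), TNS4 (0.01), LAMB3 (0.05) and YJU2 (0.05) did not pass. CMC1 (0.28) and RIOK2 (0.31), the largest of the rises by the naming rule, also did not pass, nor did POU5F1B (0.29) and GPKOW (0.17). Many of the called genes thus had a similar difference in a separate set of libraries of the same line, at a later time. The series also holds parental libraries of 24 h with and without auxin, but that response was not tested here. How much of the 24 h difference comes with auxin alone is thus not given.

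B3GNT3, a glycosyltransferase of mucin-type glycans, had opposite signs at the 2 times: it stood at 15.3 and 15.5 against 19.4 and 19.9 at 8 h (0.34 ± 0.066, limma, adjusted p = 0.0398) and at 17.8 and 17.3 against 14.4 in both auxin-treated libraries at 24 h (-0.27, adjusted p = 0.0301). The 24 h response minus the 8 h response was -0.62 ± 0.093 (adjusted p = 0.0289), and B3GNT3 was the 1 protein-coding gene of the 3 features for which the times differed (0.0201% of genes), of which 1 responded more positively (0.0067%) and 2 more negatively (0.0134%) at 24 h. That call of B3GNT3 was lost without any 1 of the 8 libraries (adjusted p = 0.063 to 0.269), over protein-coding genes only (0.0763), with only the groups compared (0.1), with ERCC scaling (-0.29, 0.186) and without scaling (-0.34, 0.168). Its 8 h call was lost without any 1 of the 4 libraries (0.0598 to 0.25). Read the other way, of the 312 genes higher at 24 h 275 were positive at 8 h in CNOT4-AID cells (median 0.16) and 180 in parental cells (median 0.01). Of the 361 genes lower at 24 h 308 were negative at 8 h (median -0.10) and 252 in parental cells (median -0.04). These directions are relative to the typical gene of each comparison: with ERCC scaling the 24 h calls were 472 higher and 2 lower, and the median of all genes stood at 0.19.

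**Figure D5:**
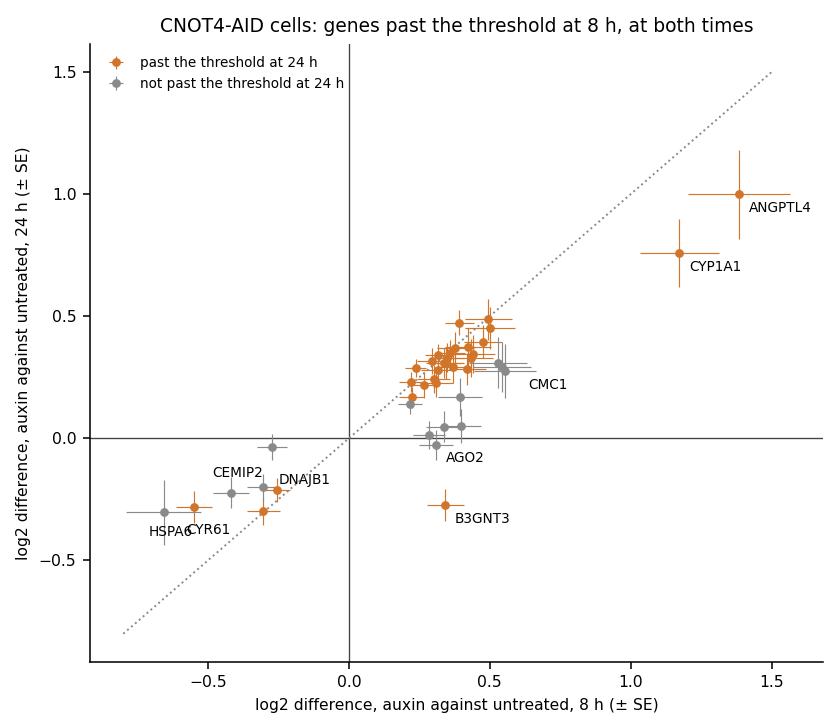
Log2 difference between auxin-treated and untreated CNOT4-AID cells at 8 h (x axis) and 24 h (y axis), estimate ± SE from limma, for the genes past the threshold at 8 h other than RF00019; the dotted line marks equal values. Most points lie in the upper right or lower left, orange points passed at 24 h and grey points did not, and B3GNT3 (0.34 and -0.27) and AGO2 (0.31 and -0.03) are on the other side of 0 at 24 h.

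The scale of the response was unlike that to loss of the scaffold at the same time. In CNOT1-AID cells 9374 genes (62.8%) passed at 8 h, and the responses of the CNOT4-AID and CNOT1-AID lines, which share no library, differed for 7704 (51.6%). Of the 43 genes called in CNOT4-AID cells 32 were among these. As at 24 h, the small SE of the called genes, shared within the fit, makes a pass easier than for a typical gene. Of the 7 fallers 6 rose in CNOT1-AID cells, where 33.1% of all genes did. These were HSPA6, C16orf70, HSPA1B, DNAJB1, SNHG12 and CYR61, with log2 differences of 1.77, 1.54, 0.84, 0.74, 0.72 and 0.44. CNOT4-AID minus CNOT1-AID, the response was -2.42 ± 0.187 for HSPA6, -1.14 ± 0.082 for HSPA1B and -1.05 ± 0.080 for DNAJB1 (limma, adjusted p = 2.03e-08, 8.74e-09 and 1.7e-08). CEMIP2 fell in both. The risers were mixed, with 19 higher and 6 lower in CNOT1-AID cells, where 33.1% and 29.8% of all genes were. KRT20 (-0.61), ACSL5 (-0.88), TNS4 (-0.96) and B3GNT3 (-1.12) fell there, and RIOK2 (1.62), ZNF622 (1.14), DPF2 (1.08) and MAPK1IP1L (1.07) rose. With ERCC scaling 764 of the differing genes were higher and 7385 lower in CNOT4-AID than in CNOT1-AID cells, against 3584 and 4120.

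The decay of the same RNAs was read in the triptolide libraries, as the slope of the log2 level per hour, scaled to ERCC RNA. All of these libraries had 2 h of auxin before triptolide, not 8 h. None came from untreated CNOT4-AID cells, so the tagged line and the loss of CNOT4 cannot be told apart in them. The slope of CNOT4-AID minus parental cells was negative for 94.5% of 16806 genes, with a median of -0.075 per hour, and 142 passed, all as lower (edgeR, 0.845%). This shift rested on the ERCC scaling: the median was -0.004 with TMM and 0 with median-of-ratios scaling. Of the 36 risers 35 were measured, with a median of -0.065, 34 negative and 1 past the threshold, FHL2 (-0.119 ± 0.0305, adjusted p = 0.049). The 7 fallers had a median of -0.086 with 6 negative and 0 past the threshold. For the steady-state genes measured in both sets the median was -0.076. The called genes ran from CYR61 at -0.124 ± 0.131 (adjusted p = 0.431) to HSPA6 at 0.054 ± 0.088 (adjusted p = 0.608), with PLRG1 at -0.07 ± 0.032 (0.112), CEMIP2 at -0.12 ± 0.032 (0.0528) and MRPS31 at 0.0044 ± 0.040 (0.933). With TMM in place of ERCC 16 genes passed, and 8 with median-of-ratios scaling. The count also moved with most single libraries: it was 0 without CNOT4-AID replicate 2 at 12 h of triptolide (edgeR, 2133 at an unadjusted p of 0.05), 9690 without replicate 1 there, and 4 to 1420 without 1 of the others.

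A non-coding gene listed as RF00019, at chromosome 14 (58441844 to 58441992) was listed at 0 in both untreated CNOT4-AID libraries and in all parental libraries of 8 h, and stood at 2.48 and 2.81 scaled TPM with auxin. It was listed at 0 in the CNOT4-AID libraries of 24 h. No fold is given against a group at 0. Another locus listed under the same name (chromosome 4, 185415973 to 185416086) was the third call in parental cells, at 21.3 and 33.9 scaled TPM with auxin and 0 untreated, and at 0 in all CNOT4-AID libraries of 8 h. These 2 loci were the only features for which the CNOT4-AID and parental responses differed (limma, 0.0134%), 1 with the higher and 1 with the lower response in CNOT4-AID cells (0.0067% each). Other loci carry the name too, and how reads were split between them is not given in the sources used here.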

How the data were processed

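The members and gene lists were chosen with earlier results of these data known. Per the submitters' processing notes, STAR 2.5.1b, RSEM, DESeq2, SAMtools and featureCounts were used on hg38, with no role given for each. The steady-state table deposited by the authors holds TPM (24 libraries), and the triptolide table deposited by the authors holds raw counts (18216427 to 24987059 per library in the parental and CNOT4-AID lines). All 58721 gene IDs matched GENCODE 29, beside 92 ERCC sequences. Stranded, rRNA-depleted total RNA was sequenced, per the labels.

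TPM values were scaled by TMM and tested with limma 3.58.1 (trend, robust) on log2(TPM + 0.5), for 14921 genes with at least 1 TPM in 2 of the 24 libraries, with 12 group means and 12 residual degrees of freedom. Adjusted p are Benjamini-Hochberg, over all genes of a comparison, with a threshold of 0.05. With 2 against 2 libraries an exact permutation test of 1 gene cannot go below p = 0.333. Slopes were fitted to counts with edgeR 4.0.16 (quasi-likelihood), scaled to 56 ERCC sequences with a mean of at least 10 counts, and with DESeq2 1.42.0 as an alternative. Errors are SE.

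Genes were named by rule: the 12 largest rises and falls with a mean of at least 5 TPM and groups that do not overlap, and called list members; genes named outside it are marked in the text. Replicate numbers were not treated as pairs in the main fits. Alternatives were other scalings, pseudocounts of 0.1 and 1, no filter, protein-coding genes only, library weights, fewer groups, a replicate block and each library left out.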

Additional observations from a re-analysis of the deposited data

Results flagged for a closer look

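Each value here is a difference between 2 responses to auxin that passed its own test (limma, adjusted p under 0.05), on the log2 scale. Between CNOT4-AID and parental cells at 8 h, the RF00019 locus on chromosome 4 differed by -5.777 ± 0.274 and that on chromosome 14 by 2.651 ± 0.25, where the values depend on the pseudocount because 1 group of each is listed at 0. Between 24 h and 8 h in CNOT4-AID cells, B3GNT3 differed by -0.616, MIR320B2 by 3.577 (5.49 and 5.44 scaled TPM with auxin at 24 h) and the chromosome 14 locus by -2.651.

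Of the genes called at 8 h, these responded more positively in CNOT4-AID than in CNOT1-AID cells: RF00019 (2.651), POU5F1B (2.125), B3GNT3 (1.457), TNS4 (1.24), ACSL5 (1.175), KRT20 (0.967), ANGPTL4 (0.914), CYP1A1 (0.881), MLPH (0.729), CMC1 (0.599), UBE2D3 (0.436), FHL2 (0.314), AGO2 (0.258), SQSTM1 (0.258), CNOT10 (0.242), TPX2 (0.236), EIF3D (0.184) and PSMG1 (0.174). These responded more negatively: HSPA6 (-2.424), C16orf70 (-1.808), HSPA1B (-1.139), RIOK2 (-1.088), DNAJB1 (-1.047), CYR61 (-0.992), SNHG12 (-0.977), DPF2 (-0.865), ZNF622 (-0.76), MAPK1IP1L (-0.633), YJU2 (-0.553), SF3B4 (-0.411), POLR3C (-0.289) and CEMIP2 (-0.253). Of all genes tested, NANOS1 (2.967), WSB2 (2.876), CXCL5 (2.562), EIF4EBP2 (2.56) and PPP1R14B (2.462) stood highest by the naming rule and ZNF296 (-3.814), IER5L (-3.476), DUSP2 (-3.46), SIK1B (-3.416) and CDC42EP2 (-3.416) lowest. SIK1B has a near-identical copy, SIK1, so its value is uncertain.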

How the results depend on the processing

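No named gene past the threshold in the main fit or in an alternative had opposite signs in those fits. Genes past it in neither fit were not checked for sign. Some CCR4-NOT subunits among them changed sign with ERCC scaling, since the median of that list did. Medians of gene lists changed sign: with ERCC scaling those of CCR4-NOT subunits and G2/M genes went from 0.022 each to -0.094 and -0.095, and without auxin-treated replicate 1 that of small nucleolar RNAs went from 0.174 to -0.153. The 24 h split of 312 higher and 361 lower became 472 and 2 with ERCC scaling. Counts of genes past the threshold moved widely. At 8 h in CNOT4-AID cells 43 became 6 with ERCC scaling, 11 without scaling, 26 with library weights and 4 with only the compared groups, and 6 to 106 without 1 library. In parental cells 3 became 1 with ERCC scaling, 18 without the filter, 5 with weights, 13 with only the compared groups, and 0 to 1 without 1 library (0 without auxin-treated replicate 1, limma, 568 at an unadjusted p of 0.05). For CNOT4-AID minus parental cells 2 became 0 over protein-coding genes (limma, 914 unadjusted), 1 with a pseudocount of 0.1, 22 without the filter and 1 to 8 without 1 library. At 24 h 673 became 21 without scaling, 240 without the filter, 1239 with weights, 19 with only the compared groups and 21 to 640 without 1 library. For 24 h minus 8 h 3 became 0 over protein-coding genes (limma, 1263 unadjusted), 14 without the filter, 5 with only the compared groups and 1 to 8 without 1 library. Against CNOT1-AID cells 7704 became 6941 to 7634 without 1 library. For the decay slope 142 became 16 with TMM, 8 with median-of-ratios scaling, 594 without the filter, 4219 with DESeq2 and 0 to 9690 without 1 library (0 without CNOT4-AID replicate 2 at 12 h, edgeR, 2133 unadjusted). Without the filter and with fewer groups the number of genes or libraries in the fit changes; otherwise the cause was not tested.

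Same-numbered libraries did not deviate together: their deviations correlated at -0.071 in CNOT4-AID and 0.008 in parental cells at 8 h, -0.02 in CNOT4-AID cells at 24 h and -0.207 in CNOT1-AID cells. Such correlations cannot show whether same-numbered libraries were handled together, which is not given in the sources used here. With a replicate block the counts were 4 at 8 h, 1 in parental cells, 88 at 24 h, 1 for 24 h minus 8 h, 7368 against CNOT1-AID cells and 24 for the slope. Of the 43 genes, CYR61, MAPK1IP1L and the chromosome 14 RF00019 locus passed again with the block. With the CNOT1-AID numbers crossed, chosen after seeing the data, 7594 passed against CNOT1-AID cells. The depth behind the TPM is unknown, and 2 libraries a group limit the precision.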
